A study of Mus musculus with 36 samples.

Results

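The 46 genes described here encode mostly nucleolar proteins that make ribosomes, from subunits of RNA polymerase I to assembly factors of both ribosomal subunits. They were taken by symbol from count tables that list 21955 symbols. All 46 were found, and all 46 passed the filter on low counts, which left 13436 genes for testing. The symbols were listed by function, with earlier results of these data known.

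The RNA came from livers of C57BL/6JN mice, an inbred laboratory strain, sampled during liver regeneration in young animals aged 4 months and old animals aged 18 months. Each age was sampled under the time labels before, 48, 72, 96, 120 and 240, with 3 biological replicates in each of the 12 groups. Time unit, the way regeneration was induced and any allele or drug are not given in the sources used here. The submitters name old animals as the treated group, so young animals and the label before serve as references.

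Ribosomes are built in the nucleolus, where RNA polymerase I copies the ribosomal DNA into a long precursor RNA. Small nucleolar ribonucleoproteins (snoRNPs) modify this precursor, a large complex called the small subunit processome folds and cuts it, and separate sets of factors finish the small and the large subunit. In liver, which regrows after tissue loss by enlargement and division of hepatocytes, ribosome production is known as one of the early growth responses.

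Libraries held 2328233 to 6034446 counts. Total RNA had been depleted of ribosomal RNA, and the tables held 0 rows of the ERCC spike-ins that the labels describe, so all values are relative to the other RNA of a library. In such bulk samples fewer cells of a type and less RNA per cell cannot be told apart. All 9 hepatocyte markers found were detected in each group, at summed levels from 45075 to 77119 CPM (counts scaled to a fixed library total, TMM-corrected). In 12 libraries, 1 in each group, Y-linked genes reached 176 CPM or more, and in the other 24 libraries at most 0.212 CPM. The old livers at 48 spread most, with a biological coefficient of variation of 40.6% over all genes against 19.4% to 27.2% in the other 11 groups.

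At 48 in young mice 9 of the 46 genes were higher than before, and 0 were lower. Over all genes tested 12.2% were called higher in this comparison, against 19.6% of the 46, and 9.79% were called lower. A call means a Benjamini-Hochberg adjusted p under 0.05 in edgeR's quasi-likelihood test, fitted to all genes and all 36 libraries. The genes were Nop58, Nhp2, Grwd1, Noc4l, Tcof1, Nop56, Rrp1b, Nob1 and Nolc1, with log2 fold changes from 0.65 to 1.37. The median log2 fold change of the 46 was 0.18, beside -0.01 over all genes tested, and 36 of 46 lay above zero, against 49.1% of all genes. In 13 of 46 genes all 3 libraries at 48 lay above the 3 before, against 20.6% of all genes.

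At 48 in old mice 26 of the 46 genes were higher than before, 0 were lower, and 45 of 46 had a fold change above zero. Over all genes tested 12.1% were called higher, against 56.5% of the 46, 12% were called lower, and 50.8% had a fold change above zero. In 25 of 46 genes all 3 libraries at 48 lay above the 3 before, against 15% of all genes. The median log2 fold change of the 46 was 0.68, beside 0.01 over all genes, and the largest called rise was that of Rrp12 at 1.81. The old calls held 8 of the 9 young calls, so 8 of 26 were shared, and Tcof1 was the remaining young call. These 26 calls rest on the spread shared by all groups. Fitted with the 6 libraries of the 2 groups alone, 0 of the 46 were called, 24 had an unadjusted p under 0.05, the smallest adjusted p was 0.0543 and the median was 0.69.

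**Figure D1:**
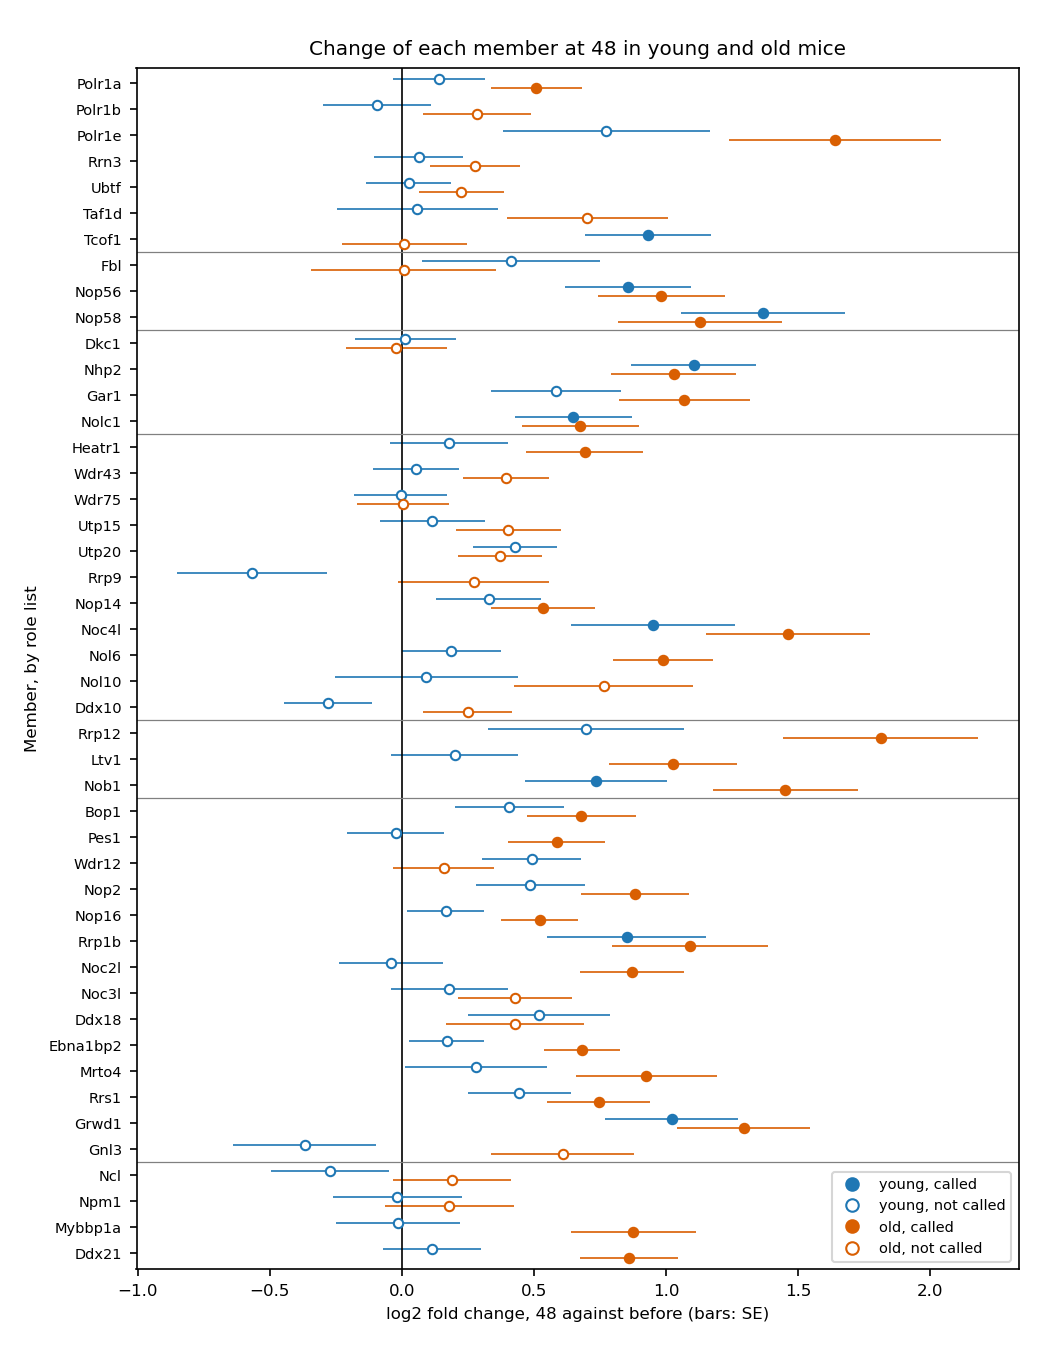
Log2 fold change of each of the 46 genes at 48 against before (x axis), in young mice (blue) and old mice (orange), with the standard error as a bar; filled points were called, and lines separate the role lists. Orange points lie to the right of zero for 45 of 46 genes, and 26 of them are filled against 9 blue ones.

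The RNA polymerase I list held 7 genes, of which 1 was called higher at 48 in young mice and 2 in old mice. Fold changes lay above zero for 6 of 7 in young and 7 of 7 in old mice. Ubtf, the factor that keeps ribosomal DNA open for transcription, stood at 119.7, 112 and 90.6 CPM in young livers before and at 122, 89.1 and 117 CPM at 48. In old livers it stood at 98.1, 113 and 99.6 CPM before and at 120.3, 112 and 131 CPM at 48. The values overlapped at both ages, and the log2 changes of 0.03 ± 0.16 (SE) and 0.22 ± 0.16 did not pass the test. Rrn3, which carries the polymerase to its promoter, likewise overlapped, with 50.3, 42.7 and 40.3 CPM before and 52.2, 39.0 and 48.0 CPM at 48 in young livers. In old livers Rrn3 had 32.2, 44.8 and 35.1 CPM before and 48.4, 53.4 and 34.3 CPM at 48.

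Calls in this list fell on other members. Tcof1 encodes treacle, a nucleolar scaffold for the polymerase, and had 8.10, 12.4 and 13.0 CPM in young livers before and 24.0, 17.6 and 22.1 CPM at 48. All 3 young libraries at 48 lay above those before (log2 fold change 0.93 ± 0.24, adjusted p = 0.00518). In old livers Tcof1 had 15.4, 16.3 and 16.6 CPM before and 19.1, 15 and 14.7 CPM at 48, with a log2 change of 0.01 ± 0.24. Polr1e, a subunit of the polymerase, was called in old mice alone, at 1.87, 0.892 and 1.14 CPM before against 3.55, 5.46 and 3.27 CPM at 48. Its log2 rise of 1.64 ± 0.40 (adjusted p = 0.004) rests on 4 to 27 counts per library. The catalytic subunit gene Polr1a rose by 0.51 ± 0.17 in old mice, while Polr1b had 0.28 ± 0.21 and did not pass.

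Of the 7 genes of the box C/D and box H/ACA lists 4 were called at 48 in young and 5 in old mice, and Nop56, Nop58, Nhp2 and Nolc1 at both ages. Nop58, a scaffold of the box C/D particles that guide methylation of ribosomal RNA, had 9.77, 9.19 and 11.8 CPM in young livers before and 34.4, 17.0 and 27.6 CPM at 48. Old livers held 9.35, 12.7 and 6.83 CPM before and 19.1, 25.7 and 18.6 CPM at 48. The groups were separate at both ages, with log2 rises of 1.37 ± 0.31 (adjusted p = 0.00164) in young and 1.13 ± 0.31 (adjusted p = 0.00935) in old mice. Its partner Nop56 rose from 27.8, 30.8 and 23.7 CPM to 46.5, 42.4 and 60.3 CPM in young livers. In old livers Nop56 rose from 21.5, 29.7 and 18.7 CPM to 59.9, 39.4 and 39.0 CPM, again with no overlap. Fbl, the methyltransferase of the same particle, had log2 changes of 0.41 ± 0.34 and 0.01 ± 0.35 and was called at neither age.

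Among the box H/ACA genes, whose particle converts uridine to pseudouridine, Nhp2 had 15, 13.4 and 14.0 CPM in young livers before and 32.2, 25.1 and 34.0 CPM at 48. In old livers the values were 17.3, 10.7 and 13.9 CPM before and 27.8, 38.4 and 19.4 CPM at 48. Both ages rose without overlap, by 1.1 ± 0.24 (adjusted p = 0.000967) and 1.03 ± 0.24 (adjusted p = 0.00249). Gar1, another protein of this particle, had 18.3, 18.1 and 16.9 CPM before and 25.0, 19.6 and 35.4 CPM at 48 in young livers (0.58 ± 0.25, adjusted p = 0.0885), separate but not called. In old livers Gar1 rose from 14.3, 14.5 and 16.6 CPM to 36.2, 35.2 and 24.1 CPM (1.07 ± 0.25). The snoRNP chaperone Nolc1 was called at both ages. Its young libraries at 48, with 97.8, 79.6 and 126 CPM, overlapped those before, with 62.1, 80.0 and 51.7 CPM, while its old libraries rose from 57.7, 60.2 and 60.6 CPM to 99.9, 113 and 72.7 CPM. Dkc1, the pseudouridine synthase itself, had log2 changes of 0.01 ± 0.19 and -0.02 ± 0.19.

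Of the 11 small subunit processome genes 1 was called in young and 4 in old mice. Nol6 had 43.4, 40.2 and 35.0 CPM in young livers before and 46.8, 39.8 and 48.5 CPM at 48. Old livers held 38.8, 31.0 and 23.2 CPM before and 60.8, 79.8 and 43.9 CPM at 48. Young values overlapped (0.19 ± 0.19), and old values were separate (0.99 ± 0.19, adjusted p = 0.00049). Noc4l was called at both ages, at 0.95 ± 0.31 and 1.46 ± 0.31, and Heatr1 and Nop14 in old mice, at 0.69 ± 0.22 and 0.54 ± 0.20. Wdr43 was called at neither age, with 34.1, 36.3 and 33.6 CPM before and 37.4, 35.4 and 34.9 CPM at 48 in young livers and 29.7, 33.0 and 31.4 CPM before and 42.2, 50.1 and 31.5 CPM at 48 in old livers. The remaining members Wdr75, Utp15, Utp20, Rrp9, Nol10 and the helicase Ddx10 lay between -0.57 and 0.43 in young and between 0.01 and 0.76 in old mice without a call.

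All 3 genes of later small subunit maturation were called higher in old mice and 1 of 3 in young mice, and all 3 had fold changes above zero at both ages. Rrp12, a factor of small subunit export, had 7.24, 7.81 and 6.15 CPM in old livers before and 27.8, 34.2 and 12.9 CPM at 48, which gave the rise of 1.81 ± 0.37 (adjusted p = 0.000885). In young livers it had 7.06, 10.4 and 7 CPM before and 16.0, 9.82 and 13.5 CPM at 48, with overlap and no call (0.70 ± 0.37). The gene lies on chromosome 19 (chr19:41862851-41896173, minus strand, GRCm38). Ltv1, which binds the maturing small subunit, went from 18.5, 13.4 and 13.9 CPM to 27.1, 45.3 and 20.8 CPM in old livers. In young livers Ltv1 stayed between 13.9 and 23.9 CPM in all 6 libraries. Nob1, the endonuclease that makes the last cut of the small subunit RNA, was called at both ages, at 0.73 ± 0.27 in young and 1.45 ± 0.27 in old mice.

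The large subunit list held 14 genes, of which 2 were called higher in young and 10 in old mice at 48. These are 14.3% and 71.4%, beside 12.2% and 12.1% of all genes. Fold changes lay above zero for 11 of 14 in young and 14 of 14 in old mice. Rrs1, which helps to build the central knob of the large subunit, had 79.0, 84.5 and 72.2 CPM in old livers before and 168, 134 and 93.1 CPM at 48. In young livers the values were 88.7, 68.1 and 61.8 CPM before and 93.5, 81.9 and 123 CPM at 48. The old groups were separate (0.74 ± 0.20, adjusted p = 0.0067), and the young groups overlapped (0.44 ± 0.20, adjusted p = 0.103). Grwd1, a chaperone of a ribosomal protein, rose at both ages, from 9.14, 11.4 and 7.97 CPM to 21.2, 13.7 and 22.9 CPM in young livers and from 8.88, 6.47 and 10.3 CPM to 21.3, 29.7 and 11.8 CPM in old livers. Rrp1b also rose at both ages. Bop1 and Pes1, partners in a complex needed for large subunit processing, rose in old mice by 0.68 ± 0.21 and 0.59 ± 0.18. Their other partner Wdr12 had 0.49 ± 0.19 in young and 0.16 ± 0.19 in old mice and was called at neither age.

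The other old calls of this list were Nop2, Nop16, Noc2l, Ebna1bp2 and Mrto4, at 0.52 to 0.93. Noc3l and the helicase Ddx18 had 0.43 each in old mice, with no call. Gnl3, which encodes nucleostemin, was the one member of the list whose young libraries at 48 all lay below those before. Its young values were 58.2, 53.4 and 53.6 CPM before and 45.4, 39.5 and 43.1 CPM at 48, and the log2 change of -0.37 ± 0.27 did not pass the test. Old livers held 50.007, 43.7 and 29.8 CPM before and 77, 79.2 and 32.5 CPM at 48, with overlap (0.61 ± 0.27, adjusted p = 0.0997).

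Of the 4 abundant nucleolar proteins, which also act outside ribosome assembly, 0 were called at 48 in young mice and 2 in old mice. Nucleolin (Ncl) had 583, 672 and 705 CPM in young livers before and 659, 444 and 522 CPM at 48. Old livers held 430.0, 654 and 724 CPM before and 546, 1053 and 464 CPM at 48. Both comparisons overlapped, and the log2 changes were -0.27 ± 0.22 and 0.19 ± 0.22. Mybbp1a, a nucleolar repressor of transcription factors, had 96.6, 92.6 and 107 CPM before and 102, 85.5 and 106 CPM at 48 in young livers. In old livers it had 101, 82.3 and 90.4 CPM before and 135, 274 and 94.0 CPM at 48, which overlapped but was called (0.88 ± 0.24, adjusted p = 0.00825). The helicase Ddx21 went from 84.1, 83.9 and 94.1 CPM to 151, 210.4 and 114 CPM in old livers without overlap. Npm1 had changes of -0.02 ± 0.24 and 0.18 ± 0.24.

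The calls in young mice depended on single libraries. The count fell to 5 without young before replicate 1, young before replicate 3 or young 48 replicate 1, and to 4 without young 48 replicate 3, and Nop58, Nhp2 and Grwd1 were called in each of the 6 fits that leave out 1 library. Without the libraries that hold Y-linked transcripts, which leaves 2 libraries a group, 2 genes were called, and 14 with totals in place of TMM scaling, edgeR's correction for composition. In old mice leaving out any of the 6 libraries gave 18 to 30 calls, and 14 genes were called in each of these fits.

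The 3 old livers at 48 were not alike. Against the mean of the old livers before, the median difference of the 46 genes on the log2(CPM + 1) scale was 0.59 in replicate 1, 0.89 in replicate 2 and 0.29 in replicate 3. In these libraries 39, 45 and 35 of the 46 genes lay above that mean. Replicate 2 thus stood highest, and without it 18 genes were called and the median fold change was 0.46 in log2. In the young livers at 48 the median differences were 0.32, 0.08 and 0.28.

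**Figure D2:**
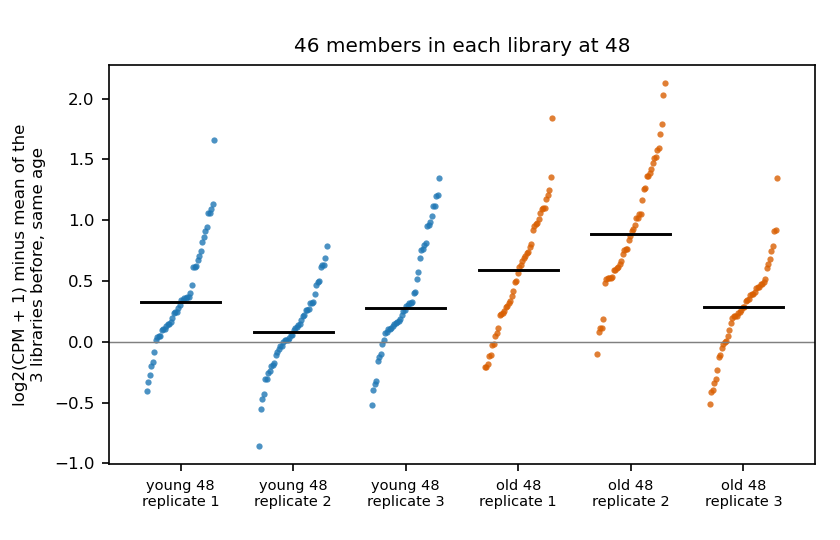
Difference of each of the 46 genes from the mean of the 3 livers before at the same age, on the log2(CPM + 1) scale (y axis), in the 6 libraries at 48; each point is a gene and the bar is the median. Old replicate 2 has the highest median, 0.89, and young replicate 2 the lowest, 0.08.

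Other genes also set old replicate 2 at 48 apart. Mki67, a marker of dividing cells, stood at 154, 13.9 and 561 CPM in old replicates 1, 2 and 3, so the library with the highest level of the 46 genes had the lowest Mki67. The old livers before had 31.2 to 84.1 CPM, and the young livers at 48 had 1401 to 2863 CPM. The same library had the lowest sum of the 8 macrophage markers, at 144 CPM against 420 and 681 CPM in the other old livers at 48. It also had the lowest sum of the 9 hepatocyte markers there, at 49520 against 67580 and 69570 CPM, and the highest sum of the 8 cholangiocyte markers, at 258 against 102 and 97.4 CPM. At 48 in old mice 3 of 8 macrophage, 3 of 8 endothelial and 2 of 3 tested lymphocyte markers were called lower than before. Of the 9 hepatocyte markers 3 were called lower and 1 higher, and 0 of 8 stellate and 0 of 5 tested cholangiocyte markers were called. At 48 in young mice 3 of 8 endothelial markers were called lower and 1 of 8 macrophage markers higher, and 0 of the hepatocyte, lymphocyte, stellate or cholangiocyte markers were called. Mki67 rose at 48 in young mice by 5.80 ± 0.92 (adjusted p = 4.8e-05), had 2.10 ± 0.78 in old mice (adjusted p = 0.0517) and was lower in old than in young livers at 48 (adjusted p = 0.00941). Of the 10 proliferation markers listed, 10 were called higher at 48 in young and 4 in old mice, and 9 were lower in old than in young livers at 48. In the interaction at 48 Pcna and Rrm1 were called, both with the smaller rise in old mice (adjusted p = 0.0185 and 0.00908), and over all later labels 6 of 10 were called. Old replicate 2 had the lowest level of each of the 10 at 48, while replicates 1 and 3 changed order, as in Mcm2 with 57.3, 12.1 and 23.3 CPM. The part of the cell type and proliferation markers in the results of either age was not tested.

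Summed over the 46 genes, young livers held 1946 ± 66.6 CPM (SD, n = 3) before, 2066 ± 263 at 48 and 2117 ± 64.1 at 72. Old livers held 1788 ± 132 CPM before, 2542 ± 773 at 48 and 1966 ± 247 at 72. The 3 old livers at 48 held 2395, 3378 and 1852 CPM, and replicate 3 lay within the range before, which reached 1873 CPM. From 96 to 240 the group means ran from 1781 to 2100 CPM in young and from 1980 to 2117 CPM in old livers. With totals in place of TMM scaling the sums at young before and young 72 were 1813 and 2264 CPM. These sums are given as levels, with no test, and Ncl alone takes a mean of 613 CPM of them.

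**Figure D3:**
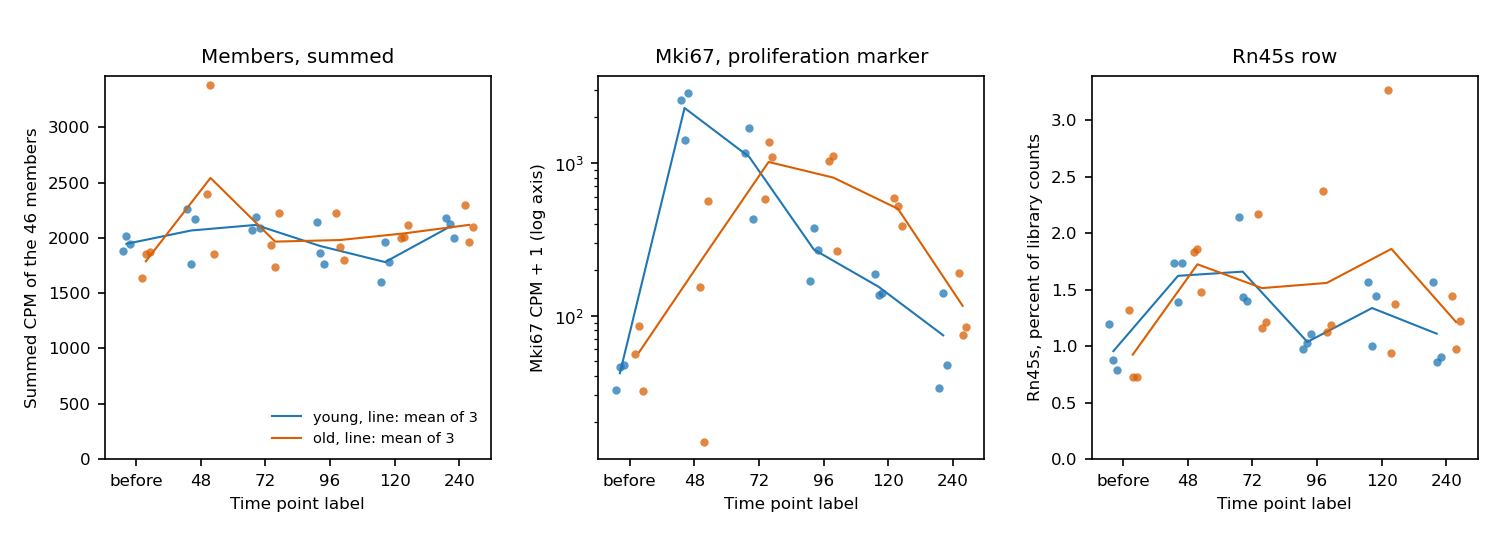
Summed CPM of the 46 genes (left), Mki67 CPM + 1 on a log axis (middle) and percent of counts in the Rn45s row (right) by time label, with a point per library (young blue, old orange) and a line through the group means. The summed level reaches 3378 CPM in 1 old library at 48, which has the lowest Mki67 of the 36, 13.9 CPM.

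Comparisons of later labels with before share the livers before at each age and are given side by side. At 72 in young mice 5 of the 46 genes were higher than before and 0 lower. Of all genes tested 9.21% were called higher and 8.21% lower, so the share of 10.9% lay near that of all genes. The median of the 46 there was 0.19, with 36 of 46 fold changes above zero, beside 51% of all genes. In 15 of 46 all 3 libraries lay above those before, against 18.1% of all genes, and in 3 all lay below, against 17.9%. Rrp12 rose most, to 18.7, 20.4 and 18.8 CPM, all above the 3 livers before (1.24 ± 0.37, adjusted p = 0.0193). Nop58, with 19.6, 25.2 and 12.2 CPM, also stood above the livers before in each library (0.89 ± 0.31, adjusted p = 0.046). Utp20, a large processome protein, reached 40.2, 40.0 and 40.9 CPM against 24.9, 31.0 and 26.3 CPM before, the most even of the 5. Gar1 and Grwd1 were the other calls, at 0.70 ± 0.25 and 0.78 ± 0.25. The count was 1 without young before replicate 1, 0 without young before replicate 3, 1 without young 72 replicate 2, 3 without the Y-linked libraries or with no filter on low counts, and 16 with total-count scaling. Under total-count scaling all genes tested had a median log2 change of 0.21 in this comparison, beside 0.014 with TMM scaling. In young mice this median was 0.095 at 48, 0.13 at 96 and 0.10 at 120, beside -0.011, 0.015 and 0.012 with TMM scaling. At 72 in old mice it was 0.11, beside -0.0061. In the other comparisons that give a fold change it lay between -0.081 and 0.089 under total-count scaling.

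At 72 in old mice 4 of 46 were higher and 0 lower, with 6.54% of all genes called higher and 5.81% lower. These were Rrp12 with 15.8, 10.5 and 20.8 CPM (1.15 ± 0.37, adjusted p = 0.0407), Grwd1, Noc2l and Nol6. Noc2l, an assembly factor also known as an inhibitor of histone acetylation, held 22.7, 23.2 and 23.9 CPM in old livers before and 37.9, 30.8 and 43.8 CPM at 72, without overlap. The median of the 46 was 0.27, with 37 of 46 fold changes above zero, beside 49.4% of all genes. In 16 of 46 all 3 libraries lay above those before, against 15.5% of all genes, and in 2 all lay below, against 15.7%. The count was 0 without old before replicate 2 or old 72 replicate 3, 1 without old before replicate 3, 0 without the Y-linked libraries and 9 with total-count scaling.

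After 72 few calls were left among the 46, and all were in old mice. In young mice few of all genes were called higher then, 0.662% at 96 and 0.216% at 120. At 96 in old mice 2 of 46 were higher, which is 4.35% and near the 3.76% of all genes called higher, and 3.07% were lower. At 120 also 2 of 46 were higher, which is 4.35%, beside 1.85% of all genes called higher and 2.02% lower. Fold changes above zero numbered 37 of 46 at 96 and 40 of 46 at 120, beside 48.2% and 49.8% of all genes. In 21 genes at 96 and 16 at 120 all 3 libraries lay above those before, against 13.3% and 10.7% of all genes. In 1 gene at 96 and 0 at 120 all 3 lay below, against 13.7% and 10.8%. Nob1 was called at both, with 5.61, 3.12 and 5.24 CPM before, 12, 9.29 and 8.71 CPM at 96 and 11.9, 8.79 and 9.80 CPM at 120. Each later library lay above each library before, and the rises were 1.08 ± 0.28 (adjusted p = 0.0195) and 1.12 ± 0.28 (adjusted p = 0.0226). The largest called rise at 96 and at 120 was that of Nob1, and Grwd1 at 96 (0.85 ± 0.26) and Nol6 at 120 (0.71 ± 0.19) were the other calls.

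With the replicate number as a block 1 gene was called at 96 in place of 2. There every pair of same-numbered libraries deviated together, as described under processing. At 96 the count was 0 without old before replicate 2, old before replicate 3, old 96 replicate 1, the Y-linked libraries or the other groups, 1 without old 96 replicate 2 or with no filter, and 5 with total-count scaling. At 120 it was 0 without old before replicate 2, old before replicate 3 or old 120 replicate 1, and 1 without old 120 replicate 2, old 120 replicate 3 or the other groups.

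In 4 later comparisons with before, 0 of the 46 genes were called in edgeR and 0 in DESeq2. At 96, 120 and 240 in young mice 3, 2 and 1 of them had an unadjusted p under 0.05, and at 240 in old mice 12 did, beside 15.3%, 12%, 5.11% and 7.67% of all genes. Of all genes 1.4%, 0.581% and 0.246% were called in young mice and 0.156% at 240 in old mice. At 240 in old mice 41 of 46 fold changes were above zero with a median of 0.27, beside 50.7% of all genes above zero, and 15 of 46 genes had all 3 libraries above those before, against 6.44% of all genes. In young mice at 240 that count was 4 of 46, against 6.14%. There 36 of 46 fold changes were above zero with a median of 0.11, beside 50.7% of all genes above zero. Over the 10 comparisons with before, 28 genes were called at least once, Grwd1 in 5 and Nob1 in 4 of them, and 18 in none.

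**Figure D4:**
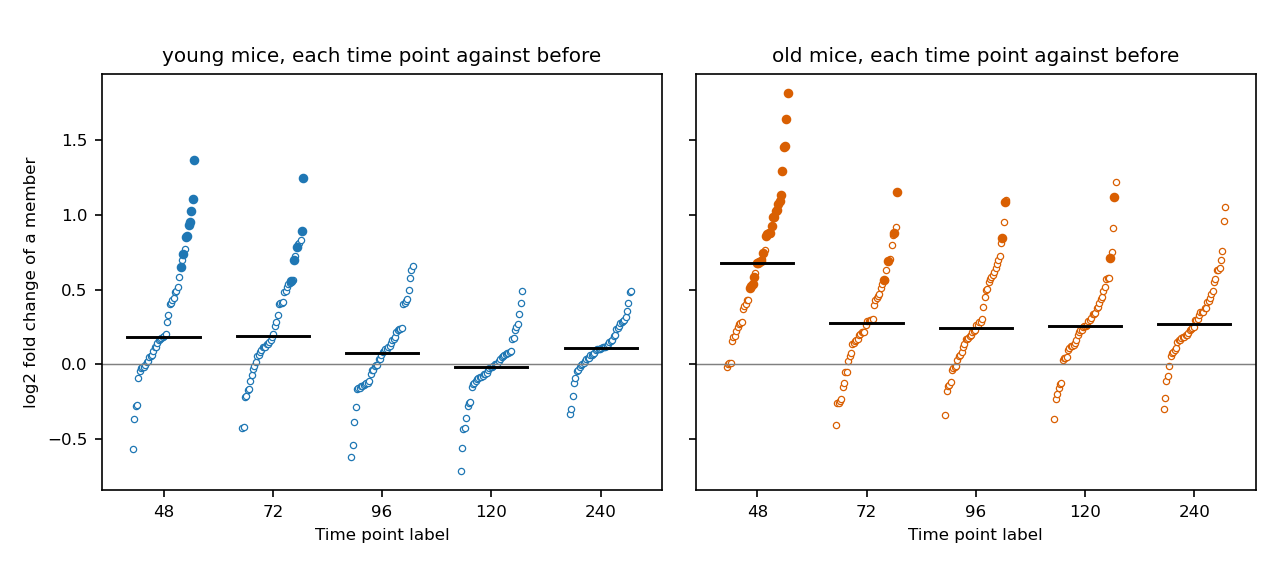
Log2 fold change of each of the 46 genes against before (y axis) at each later time label (x axis), in young (left) and old mice (right); filled points were called and the bar is the median. The median is highest at 48 in old mice, 0.68, and stays at 0.25 to 0.27 from 72 to 240 in old mice.

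Time of the highest group mean differed among the genes. In old mice it was 48 for 38 of 46, where 26.9% of all genes have theirs. In young mice it was 48 for 21 and 72 for 16 of 46, where 26.6% and 16.6% of all genes have theirs. The old means at 48 include replicate 2, the library with the highest median difference from before, and the count was not taken without it. Ncl, for one, has its highest old mean at 48, with 546, 1053 and 464 CPM there against a mean of 602 CPM before. The step from 48 to 72 was called for 0 of 46 in young mice in edgeR and in DESeq2, with 5 at an unadjusted p under 0.05. Of all genes 1.21% were called and 16.8% had such a p. In old mice it was called for 1 of 46, Ddx21, which fell by 0.66 ± 0.18 in log2 (adjusted p = 0.0474), and 1.28% of all genes were called lower. Its libraries held 151, 210.4 and 114 CPM at 48 and 93.9, 89.9 and 116 CPM at 72, which overlap. That call was lost in 11 of 17 alternatives, whose adjusted p ran from 0.00399 to 0.63. Without old 48 replicate 2 the count among the 46 was 0, without old 72 replicate 2 or old 72 replicate 3 also 0, and without old 48 replicate 3 it was 11.

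**Figure D5:**
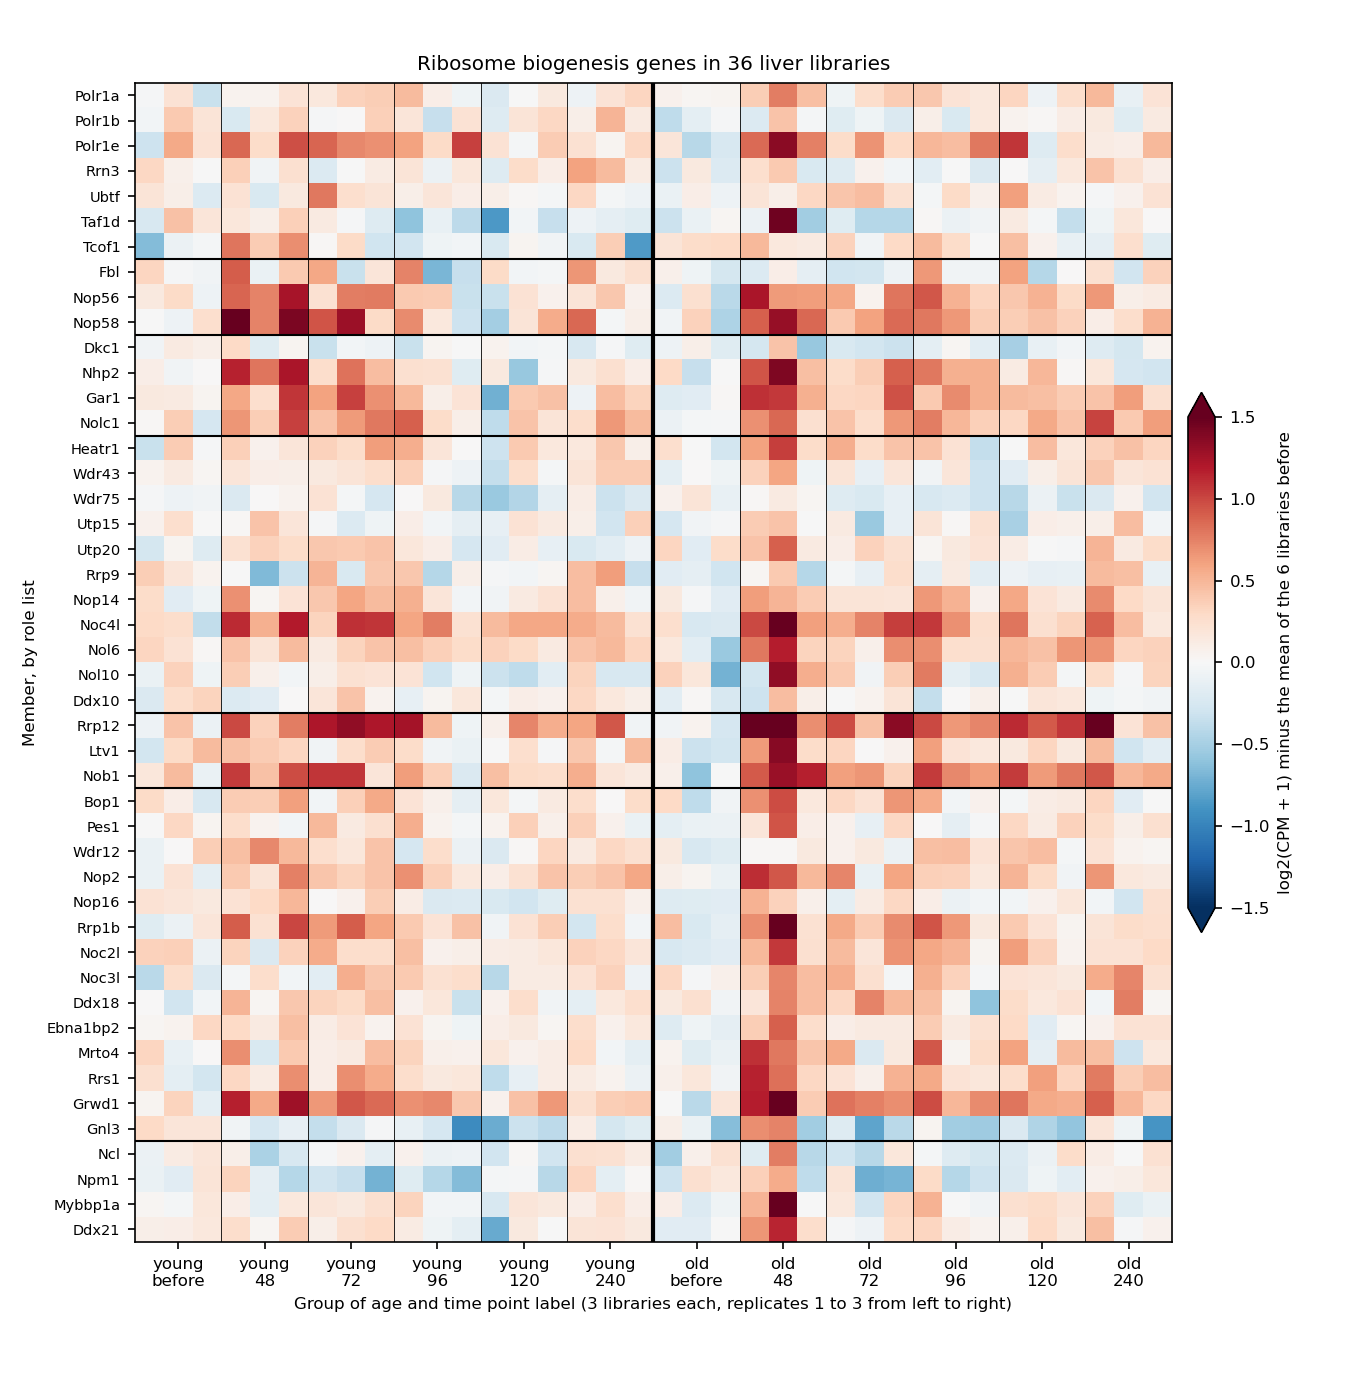
Level of the 46 genes (rows, by role list) in the 36 libraries (columns), as the difference of log2(CPM + 1) from the mean of the 6 livers before. Old 48 replicate 2, whose median difference from the old livers before is 0.89, is the most strongly raised column.

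Old and young livers were then compared directly, which is the comparison the labels name. At 48 1 of 46 genes was called, Mybbp1a, which was higher in old livers by 0.78 ± 0.24 (adjusted p = 0.0291), and 4.42% of all genes were called higher. Old livers held 135, 274 and 94.0 CPM and young livers 102, 85.5 and 106 CPM, so the groups overlapped and replicate 2 stood far above the rest. The gene lies at chr11:72441355-72451768 (plus strand, GRCm38). The call was lost in 6 of 17 alternatives, whose adjusted p ran from 0.00112 to 0.646. It was lost without old 48 replicate 2 (0.22), without each of the 3 young libraries, without the Y-linked libraries and without the other groups. Without old 48 replicate 3 8 genes were called higher in old livers, Ddx21, Gnl3, Ltv1, Mybbp1a, Noc2l, Nol6, Rrp12 and Rrs1. With all libraries the median log2 difference of the 46 at 48 was 0.26, with 35 of 46 above zero, beside 51.5% of all genes. Without old 48 replicate 2 that median was 0.03, with 26 of 46 above zero. With all libraries 12 of 46 had an unadjusted p under 0.05, 11 of them higher in old livers, beside 24.9% of all genes in either direction. In 2 of 46 all 3 old livers lay above the young ones, against 8.78% of all genes, and in 1 all lay below, against 12.8%.

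Among the livers before, old ones had the lower level in most of the 46 genes, with 10 of 46 fold changes above zero against 51.4% of all genes and a median of -0.16. In 10 of 46 genes all 3 old livers before lay below all 3 young ones, against 6.4% of all genes. These livers are the reference of the old rises and of the interaction. At before and at the labels after 48 0 of 46 were called between the ages in edgeR and in DESeq2. Unadjusted p-values under 0.05 numbered 3 before, 0 at 72 and 2 each at 96, 120 and 240, beside 6.91%, 4.86%, 13.2%, 9.83% and 4.92% of all genes. Of all genes 0.0595%, 0%, 0.171%, 0% and 0.0149% were called there. Averaged over the 6 labels 0 of 46 were called in edgeR, with 4 at an unadjusted p under 0.05, and 1 was called in DESeq2. Of all genes 5.98% were called and 20.4% had such a p. Rrs1 had the smallest adjusted p, 0.0565, at 0.25 ± 0.08. That average gave 1 call without young before replicate 1, young 48 replicate 3, young 72 replicate 2, young 120 replicate 3 or old 72 replicate 2, and 2 without old 48 replicate 3.

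The difference between the ages in the change from before was tested as an interaction. At 48 0 of 46 genes were called in edgeR and in DESeq2, 12 had an unadjusted p under 0.05, 11 of them toward a larger rise in old mice. Of all genes 1.38% were called and 15.9% had an unadjusted p under 0.05. The smallest adjusted p was 0.0837, for Noc2l, at 0.91 ± 0.28. Its young livers held 34.7, 34.8 and 25.4 CPM before and 34.3, 23.0 and 34.7 CPM at 48, and its old livers 22.7, 23.2 and 23.9 CPM before and 38.2, 57.4 and 32.1 CPM at 48. Over all 5 later labels 0 of 46 were called in both tools and 1 had an unadjusted p under 0.05, with a smallest adjusted p of 0.188 for Wdr12. Of all genes 2.76% were called and 14.1% had such a p. So the 26 old and 9 young calls at 48 are not shown to differ gene by gene. Without old 48 replicate 3 5 genes were called in the interaction at 48, Ddx21, Gnl3, Mybbp1a, Noc2l and Nol6. The median of the 46 was then 0.52, with 41 of 46 above zero. Without old 48 replicate 2 0 genes were called, and the median was 0.20, with 31 of 46 above zero.

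The Rn45s row is the transcription unit of the ribosomal precursor RNA that many of the 46 proteins help to make or process. The unit also holds the mature ribosomal RNAs, so precursor and mature RNA left after depletion cannot be told apart in this row. In young livers it took 0.955% ± 0.215 of counts before (SD, n = 3), 1.62% ± 0.202 at 48 and 1.66% ± 0.417 at 72, and 1.04% to 1.34% from 96 to 240. In old livers it took 0.924% ± 0.345 before, 1.72% ± 0.217 at 48 and 1.51% ± 0.566 at 72, and 1.21% to 1.86% from 96 to 240. At 48 the 3 libraries lay above those before at both ages, with 1.39% to 1.74% against 0.786% to 1.20% in young and 1.47% to 1.86% against 0.724% to 1.32% in old livers. The log2 rises of 0.66 ± 0.36 (adjusted p = 0.199) and 0.87 ± 0.36 (adjusted p = 0.0758) did not pass the test, and Rn45s was called in none of the 21 comparisons. Its change at 48 was called at both ages with the replicate block, in young mice with the 2 groups alone and in old mice without old before replicate 1 or without the Y-linked libraries, over ranges of the adjusted p from 0.0185 to 0.425 and from 0.00695 to 0.239. At 120 in old mice (0.92 ± 0.36, adjusted p = 0.143) it was called with the replicate block and without the Y-linked libraries, over a range of the adjusted p from 0.034 to 0.774. In none of the comparisons where the block gave a call did every pair of same-numbered libraries deviate together. In old replicates 1, 2 and 3 at 48 the share was 1.83%, 1.86% and 1.47%, and the single highest share was 3.27%, in old 120 replicate 1, where the 46 genes summed to 1998 CPM.

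Myc, a transcription factor known to drive many ribosome biogenesis genes, was called in none of the comparisons. It had 114, 12.9 and 18.6 CPM in young livers before and 14.9, 16.8 and 18.9 CPM at 48 (-1.54 ± 0.61, adjusted p = 0.0717), so 1 library before stood far above the rest. In old livers it had 13.1, 22.1 and 28.9 CPM before and 30.0, 38.4 and 27.4 CPM at 48 (0.58 ± 0.60).

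Myc and related factors bind the E-box CACGTG, a palindrome that reads the same on both strands. RefSeq promoter windows (GRCm38.p6, 250 bases before to 50 after the start) were matched for 39 of the 46 genes. The motif was found in 8 of them, which is 20.5%, beside 11.5% of the matched genes among all tested. Before the start alone it was found in 2, which is 5.13%, beside 9.69%. The 9 sites, each shown with up to 12 bases on each side and the motif in capitals, show where in the promoters it lies, and were picked after the values were seen. Coordinates are those of the printed bases, and sequences on the minus strand are written 5′ to 3′ in the direction of the gene.
Rrn3 site 215 bases before the start, chr16:13780472-13780501, plus strand: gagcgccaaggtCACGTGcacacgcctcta
Rrn3 site 48 bases before the start, chr16:13780639-13780668, plus strand: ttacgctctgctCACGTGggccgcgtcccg
Nop2 site 60 bases before the start, chr6:125131811-125131840, plus strand: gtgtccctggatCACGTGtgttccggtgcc
Pes1 site in untranslated exon, chr11:3963965-3963994, plus strand: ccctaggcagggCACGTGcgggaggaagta
Wdr43 site in untranslated exon, chr17:71616220-71616249, plus strand: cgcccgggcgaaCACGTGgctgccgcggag
Ltv1 site in untranslated exon, chr10:13193092-13193121, minus strand: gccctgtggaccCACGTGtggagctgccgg
Utp20 site in untranslated exon, chr10:88826765-88826789, minus strand: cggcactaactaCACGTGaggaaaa
Mybbp1a site in untranslated exon, chr11:72441355-72441376, plus strand: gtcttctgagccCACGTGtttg
Grwd1 site in coding exon, chr7:45830740-45830767, minus strand: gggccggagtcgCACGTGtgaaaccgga

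Of these 8 genes Ltv1, Pes1, Nop2, Grwd1 and Mybbp1a were called at 48 in old mice, and Grwd1 in young mice. Of the 31 matched genes without the motif 17 were called in old and 7 in young mice. The median log2 changes in old mice were 0.73 with and 0.68 without the motif. A match is a description of these letters and does not show that a factor binds there.

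Several of the genes also carry small nucleolar RNA genes inside their own bodies. In the GENCODE vM21 annotation of GRCm38 this holds for 7 of 46, which is 15.2%, beside 1.63% of the tested protein-coding genes. They are Taf1d, Nop56, Nop58, Dkc1, Wdr43, Gnl3 and Ncl. At 48 in old mice 2 of these 7 and 24 of the other 39 were called, with median log2 changes of 0.61 and 0.68. At 48 in young mice 2 of the 7 and 7 of the 39 were called, with medians of 0.05 and 0.20. Nop58, for one, spans chr1:59684971-59719044 on the plus strand and holds 4 such genes. In 10 of the 46 (Taf1d, Nop56, Dkc1, Nhp2, Bop1, Pes1, Rrp1b, Noc2l, Gnl3 and Mybbp1a) an exon overlaps an exon of another protein-coding gene, and without knowledge of strand in the counting their reads cannot be told apart.

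A list of 104 further ribosome biogenesis symbols was set beside the 46, of which 99 were found and tested. At 48 in young mice 16 of 99 were higher and 1 lower, so 16.2% were higher against 12.2% of all genes. In old mice 36 were higher and 1 lower, 36.4% against 12.1%. At 72 the counts were 8 higher and 3 lower in young mice, 8.08% against 9.21% of all genes, and 8 higher and 1 lower in old mice, 8.08% against 6.54%, so the shares at 72 lay near those of all genes. The called genes with the highest levels at 48 in old mice were Ftsj3, an rRNA methyltransferase, with 0.91 ± 0.18, Rrp1 with 0.53 ± 0.14, Bms1, a processome GTPase, with 0.56 ± 0.16 and Mdn1, a remodelling ATPase, with 0.55 ± 0.19. In young mice they were Rcl1, which fell by 0.84 ± 0.23, Nop9 with 0.43 ± 0.15, Ppan with 0.66 ± 0.24 and Gnl3l with 0.60 ± 0.17. Rcl1 was called lower at 72 and 96 in young mice too. Old livers at 48 exceeded young ones in Gnl2 (1.1 ± 0.26, adjusted p = 0.0051), Exosc5 and Rrp1 and lay below them in Utp3 (-0.50 ± 0.17).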

How the data were processed

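The deposited tables hold raw counts per gene symbol for each of 36 libraries, 3 per group in 12 groups, at 2328233 to 6034446 counts each. The submitters' processing notes name bcl2fastq 2.20.0, Trimmomatic 0.39, FastQC 0.11.9, STAR 2.7.5b, SAMtools 1.10, Picard 2.20.8, deepTools 3.5.0, featureCounts and the mouse build GRCm38 (mm10). Annotation and strand setting of the counting are not given in the sources used here. The tables held 27 symbols turned into dates, none of them among the 46 genes.

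Counts were filtered with filterByExpr, which kept 13436 of 21955 symbols, scaled by TMM and fitted with edgeR 4.0.16 in R 4.3.3 (robust quasi-likelihood, 1 mean per group over all 36 libraries, common biological coefficient of variation 24.7%). Calls are Benjamini-Hochberg adjusted p under 0.05 over all genes tested. Reported CPM use TMM-scaled totals. Scripts were tested on simulated data. Replicates are biological per the labels, which do not say whether a number ties groups.

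Values per library are given for the 2 genes with the highest mean CPM in each role list, for genes called between the ages or in the interaction, and for the called gene with the largest rise or fall against before at each age and label. Tcof1, Polr1e, Nhp2, Grwd1, Noc2l, Utp20 and Ddx21 are given per library too and were chosen after their values were seen. Of the further genes up to 4 called ones with the highest mean CPM in a comparison are named. The 46 genes, the lists and the tests were chosen with earlier results of these data known. As alternatives, counts were scaled by RLE factors, by totals, or by TMM with Rn45s left out. Others were no filter, a filter of 1 CPM in 3 libraries, DESeq2 1.42.0, a fit of the compared groups alone, the replicate number as a block, a term for Y-linked transcripts or leaving out the 12 libraries that hold them, and leaving out each library. A fit without the robust option was added after seeing the data.

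The replicate number was checked as a block: in 6 of 18 comparisons every pair of same-numbered libraries deviated together (correlation over 0.1), namely young 120, young 240, old 96 and old 240 against before, and old against young at before and at 240. All 6 are among the 9 comparisons in which the library with Y-linked transcripts has the same number in both groups.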

Additional observations from a re-analysis of the deposited data

How the results depend on the processing

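Of 850 values of called genes under the alternatives, 850 kept their direction, 671 kept their call and 179 lost it. Total-count scaling gave 14 calls at young 48, 16 at young 72, 9 at old 72, 5 at old 96, 1 for the ages averaged and 0 for old 72 against 48, and summed levels of 1813 CPM at young before and 2264 CPM at young 72. Leaving out the libraries with Y-linked transcripts gave 2 at young 48, 3 at young 72, 0 at old 72, 0 at old 96, 0 between the ages at 48 and 0 for old 72 against 48. Fitting the compared groups alone gave 1 (lower) at young 120, 0 at old 48, 0 at old 96, 1 at old 120, 0 between the ages at 48 and 0 for old 72 against 48. No filter on low counts gave 3 at young 72, 1 at old 96 and 0 for old 72 against 48, and the filter of 1 CPM gave 0 for the last. A term for Y-linked transcripts and DESeq2 each gave 1 for the ages averaged, and DESeq2 gave 2 for old 72 against 48. With the replicate block 1 gene was called at old 96, where every pair of same-numbered libraries deviated together. It gave 0 for old 72 against 48, where they did not. The block moved no other count of calls by over 1.5 times. For these changes the cause was not tested, except that the fits of fewer groups or without libraries hold fewer samples.

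Leaving out each library in turn gave 4 to 10 calls at young 48, 0 to 6 at young 72, 18 to 30 at old 48, 0 to 6 at old 72, 0 to 3 at old 96 and 0 to 2 at old 120. It gave 0 to 8 between the ages at 48, 0 to 2 for the ages averaged, 0 to 11 for old 72 against 48 and 0 to 5 for the interaction at 48. At young 48 Nop58 and Nhp2 kept their call in all 17 alternatives. Rn45s stayed on the same side of the threshold in 392 of 399 values and was called in 7. Depth limits Polr1e most, with as few as 4 counts in a library.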
